A study of Mus musculus with 6 samples.

Results

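Aquaporins are small membrane proteins that assemble as tetramers and let water, and in some members glycerol, cross the membrane down its gradient. The mouse aquaporin genes Aqp1, Aqp2, Aqp3, Aqp4, Aqp5, Aqp6, Aqp7, Aqp8, Aqp9 and Aqp11 were described here by chromatin accessibility in the kidney. These 10 genes were taken by name from the 21757 protein-coding genes of the GENCODE M39 annotation. The region of a gene ran from 3 kb upstream of its start to its end, and every distinct interval of the pooled ATAC-seq peak list that overlapped a region was counted. The 10 regions held 41 of the 279569 distinct intervals of the list.

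ATAC-seq reads mark DNA that the Tn5 transposase could reach in isolated nuclei. The libraries mapped to groups here were 3 from kidneys of WT mice, in batches 1 and 2, and 3 from kidneys of Acly cKO mice, in batches 4 and 5. Acly cKO mice have a tubule-specific Acly deletion. By the methods, the controls were Acly fl/fl littermates that lacked Cre, the Acly cKO mice carried Acly fl/fl and Ksp-Cre, and the nuclei came from the cortex. Acly encodes ATP-citrate lyase, which makes acetyl-CoA from citrate, and Ksp-Cre, driven by the Cdh16 promoter, recombines in proximal tubules, distal tubules and collecting ducts, so the other cells of the kidney keep the gene. All libraries carried the treatment label Control, and the labels gave neither age nor sex. The peak list is a single call named for all libraries together, with no value for any library. WT and Acly cKO were therefore not compared, no value below has a replicate error, and genotype and batch cannot be told apart in this design. Further WT libraries that the study describes were not mapped to groups here. The file does not name the libraries in the pool, so whether those further libraries contribute to the folds is not known.

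Each interval carried 1 or more summits, which are local maxima of read coverage, and each summit carried a fold over the background of the whole pool. An interval took the fold and q of its highest summit. Every fold in the list was a whole multiple of 0.0655 to within 0.0077 of that step, which gave back the pileup, the whole number of pooled reads or fragments over the summit, against a constant background pileup of 14.3. The bracketed range after a fold is the exact Poisson 95% interval of its pileup, written on the fold scale. It covers counting error only, since the spread between mice was not measured. It does not allow for the choice of the highest of several summits. The same limits hold for the bracketed ranges of pileup ratios. A ratio of the highest summit of a gene to another of its summits, or to the next gene in an order, is at least 1 by construction. Both kinds of range treat units of pileup as independent, and would be too narrow if both reads of a fragment were counted. Because 1 background served the whole genome, a fold also carries any local difference in mappability or copy number.

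Within the family, Aqp1, Aqp2, Aqp4 and Aqp5 are classical water channels, Aqp6 passes anions and sits inside cells, and Aqp8 also passes ammonia and hydrogen peroxide. Aqp3, Aqp7 and Aqp9 are aquaglyceroporins, which also pass glycerol, and Aqp11 is a distant member found in the endoplasmic reticulum. In the kidney, Aqp1 lies in the proximal tubule and thin descending limb and Aqp7 and Aqp11 in the proximal tubule. Aqp2 is carried by vesicles to the apical membrane of collecting duct principal cells when vasopressin acts, and Aqp3 and Aqp4 give water its way out through the basolateral membrane of the same cells. Aqp6 belongs to intercalated cells, Aqp5 is best known from glands and lung, and Aqp9 from liver.

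The sequences just upstream of 6 gene starts are shown because they set the results on CpG content side by side. Each runs 5′ to 3′ on the strand of the gene over the 200 bases before the GENCODE gene start, was read from the GRCm39 genome, and has its CG dinucleotides in capitals. The first 3 hold 16, 12 and 22 CG dinucleotides, and the last 3 hold 1, 3 and 5.
Aqp11 promoter, chr7:97387525-97387724, minus strand: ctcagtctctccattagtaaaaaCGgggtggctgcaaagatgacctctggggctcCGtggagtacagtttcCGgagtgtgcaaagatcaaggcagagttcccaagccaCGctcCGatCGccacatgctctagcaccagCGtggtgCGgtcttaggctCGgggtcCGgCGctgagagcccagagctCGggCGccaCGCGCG
Aqp3 promoter, chr4:41098184-41098383, minus strand: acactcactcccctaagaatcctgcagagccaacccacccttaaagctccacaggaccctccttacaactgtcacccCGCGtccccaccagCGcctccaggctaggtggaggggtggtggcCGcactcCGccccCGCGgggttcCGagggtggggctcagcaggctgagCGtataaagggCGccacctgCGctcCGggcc
Aqp5 promoter, chr15:99488332-99488531, plus strand: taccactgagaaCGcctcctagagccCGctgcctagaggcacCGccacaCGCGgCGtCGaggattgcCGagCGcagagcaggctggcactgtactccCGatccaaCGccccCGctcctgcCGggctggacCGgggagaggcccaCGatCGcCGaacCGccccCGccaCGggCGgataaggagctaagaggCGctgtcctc
Aqp1 promoter, chr6:55312868-55313067, plus strand: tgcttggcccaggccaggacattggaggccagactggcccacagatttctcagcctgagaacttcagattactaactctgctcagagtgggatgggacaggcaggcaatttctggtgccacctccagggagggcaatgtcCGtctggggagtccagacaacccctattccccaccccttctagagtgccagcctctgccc
Aqp8 promoter, chr7:123061314-123061513, plus strand: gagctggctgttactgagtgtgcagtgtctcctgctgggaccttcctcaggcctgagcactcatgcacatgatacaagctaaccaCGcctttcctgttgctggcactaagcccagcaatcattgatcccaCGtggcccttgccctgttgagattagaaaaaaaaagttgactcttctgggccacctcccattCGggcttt
Aqp2 promoter, chr15:99476736-99476935, plus strand: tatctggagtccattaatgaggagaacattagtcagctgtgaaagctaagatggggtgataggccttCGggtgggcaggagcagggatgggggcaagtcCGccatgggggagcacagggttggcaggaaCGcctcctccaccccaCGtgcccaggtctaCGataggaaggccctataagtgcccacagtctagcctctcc
Aqp11 and Aqp3 had open gene starts in CpG-rich sequence, Aqp5 had the most CG dinucleotides and a weak start, and Aqp1 had the second highest start of the family with 1 CG dinucleotide upstream.

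Of the proximal tubule channels, Aqp1 had the broadest opening. Aqp1 (ENSMUSG00000004655.7, chr6:55313068-55325540, plus strand) had 2 intervals, and together they covered 90.2% of its region, more than in 95.4% of protein-coding genes. The larger, chr6:55311319-55323231, was 11913 bp wide, held 34 summits and reached from 1749 bp upstream of the gene start into the gene body. Its highest summit had a fold of 35.1 [32.2 to 38.2] from a pileup of 535 and lay 181 bp downstream of the gene start, in the 5′ UTR of exon 1. A neighbouring summit at 36 bp had a fold of 34.0, and further summits in intron 1 had folds of 12.2 at 1462 bp and 27.0 at 2187 bp. The start summit exceeded the intron 1 summit at 2187 bp by a pileup ratio of 1.30 [1.14 to 1.48]. In exon 2, 9427 bp downstream of the start, a summit in coding sequence had a fold of 10.5. Most of the Aqp1 gene body was thus inside called intervals, with the highest coverage in its first part.

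Aqp11 (ENSMUSG00000042797.11, chr7:97373213-97387524, minus strand), whose loss is known to cause polycystic kidneys in mice, had the highest summit of the family. Its fold was 54.9 [51.2 to 58.7] from a pileup of 837, at 217 bp downstream of the gene start in the 5′ UTR of exon 1. That start fold was above that of 87.6% of protein-coding genes. The interval around it, chr7:97383941-97389058, had 13 summits over 5118 bp, and its next highest summits, in intron 1, had folds of 10.5 at 3124 bp and 7.53 at 2328 bp. Another interval had a fold of 8.97 [7.54 to 10.6] at 2882 bp upstream. The other 4 intervals of Aqp11 lay within introns 1 and 2 and had folds from 1.70 to 4.65. Accessibility at Aqp11 was thus concentrated at the start, where the highest summit exceeded the next by a pileup ratio of 5.26 [4.44 to 6.28].

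Aqp7 (ENSMUSG00000028427.15, chr4:41032835-41048211, minus strand), the glycerol channel of the proximal tubule and of fat, had its highest summits inside the gene instead. It had 7 intervals, 4 of them with a fold of at least 5. The highest summit, in intron 2 at 2730 bp, had a fold of 21.5 [19.2 to 23.9] from a pileup of 327. The next, in intron 3 at 5112 bp, had a fold of 19.1 [17.0 to 21.4] from a pileup of 291, and the 2 did not differ beyond counting error (ratio 1.12 [0.957 to 1.32]). An upstream summit at 2698 bp had a fold of 12.7 [11.0 to 14.6], and a summit in intron 3 at 10088 bp had 9.82 [8.32 to 11.5]. Within 1 kb of the gene start the highest summit had a fold of 9.30 [7.84 to 11.0] from a pileup of 141 and lay 912 bp upstream, while at 147 bp downstream the fold was 5.24. The intron 2 summit exceeded the summit 912 bp upstream by a ratio of 2.32 [1.90 to 2.85]. Aqp7 has 30 annotated transcripts with 13 different starts, and the intron 2 summit lay 33 bp from one of these starts and 29 bp from the start of Gm68796, a lncRNA on the opposite strand. Reads over that summit cannot be assigned to either gene.

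The intron 2 sequence next to that summit is shown because it lies at the highest fold of the gene. It is cut to the 65 bases that lie in no UTR of any annotated transcript, and its capitals mark GTTAAT on the opposite strand, the core of sites bound by HNF1, a transcription factor of tubule epithelium.
Aqp7 intron 2, chr4:41045449-41045513, minus strand: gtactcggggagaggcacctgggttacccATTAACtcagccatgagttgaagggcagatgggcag
The letters GTTAAT, on either strand, stood in 7.30% of the 200-base windows centred on the highest summits of 279567 intervals. Outside the bases shown, the window at the intron 2 summit also held the AP-2 letters GCCNNNGGC, present in 7.64% of all windows. The window at the summit 912 bp upstream of Aqp7 held the AP-1 letters TGANTCA, present in 12.4% of all windows, and 2 copies of the nuclear receptor core AGGTCA, present in 17.7%. That window also held TGGAAA, present in 16.2%, and CCAAT, present in 22.8%. Each match is a description of the letters and not a measured binding site.

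Aqp8 (ENSMUSG00000030762.13, chr7:123061514-123067227, plus strand), a channel of the inner mitochondrial membrane as well as the plasma membrane, had 2 intervals of similar height. The first, chr7:123060497-123061989, had its highest summit 111 bp upstream of the start with a fold of 11.5 [9.89 to 13.4] from a pileup of 175. The other, chr7:123064348-123066000, had a fold of 12.4 [10.7 to 14.3] from a pileup of 189, in intron 4 at 3605 bp, and a second summit of 8.97 at 3965 bp. The 2 intervals did not differ beyond counting error (ratio 1.08 [0.875 to 1.33]). None of the 16 motifs searched was found in the 200 bases before the Aqp8 start, printed above.

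**Figure D1:**
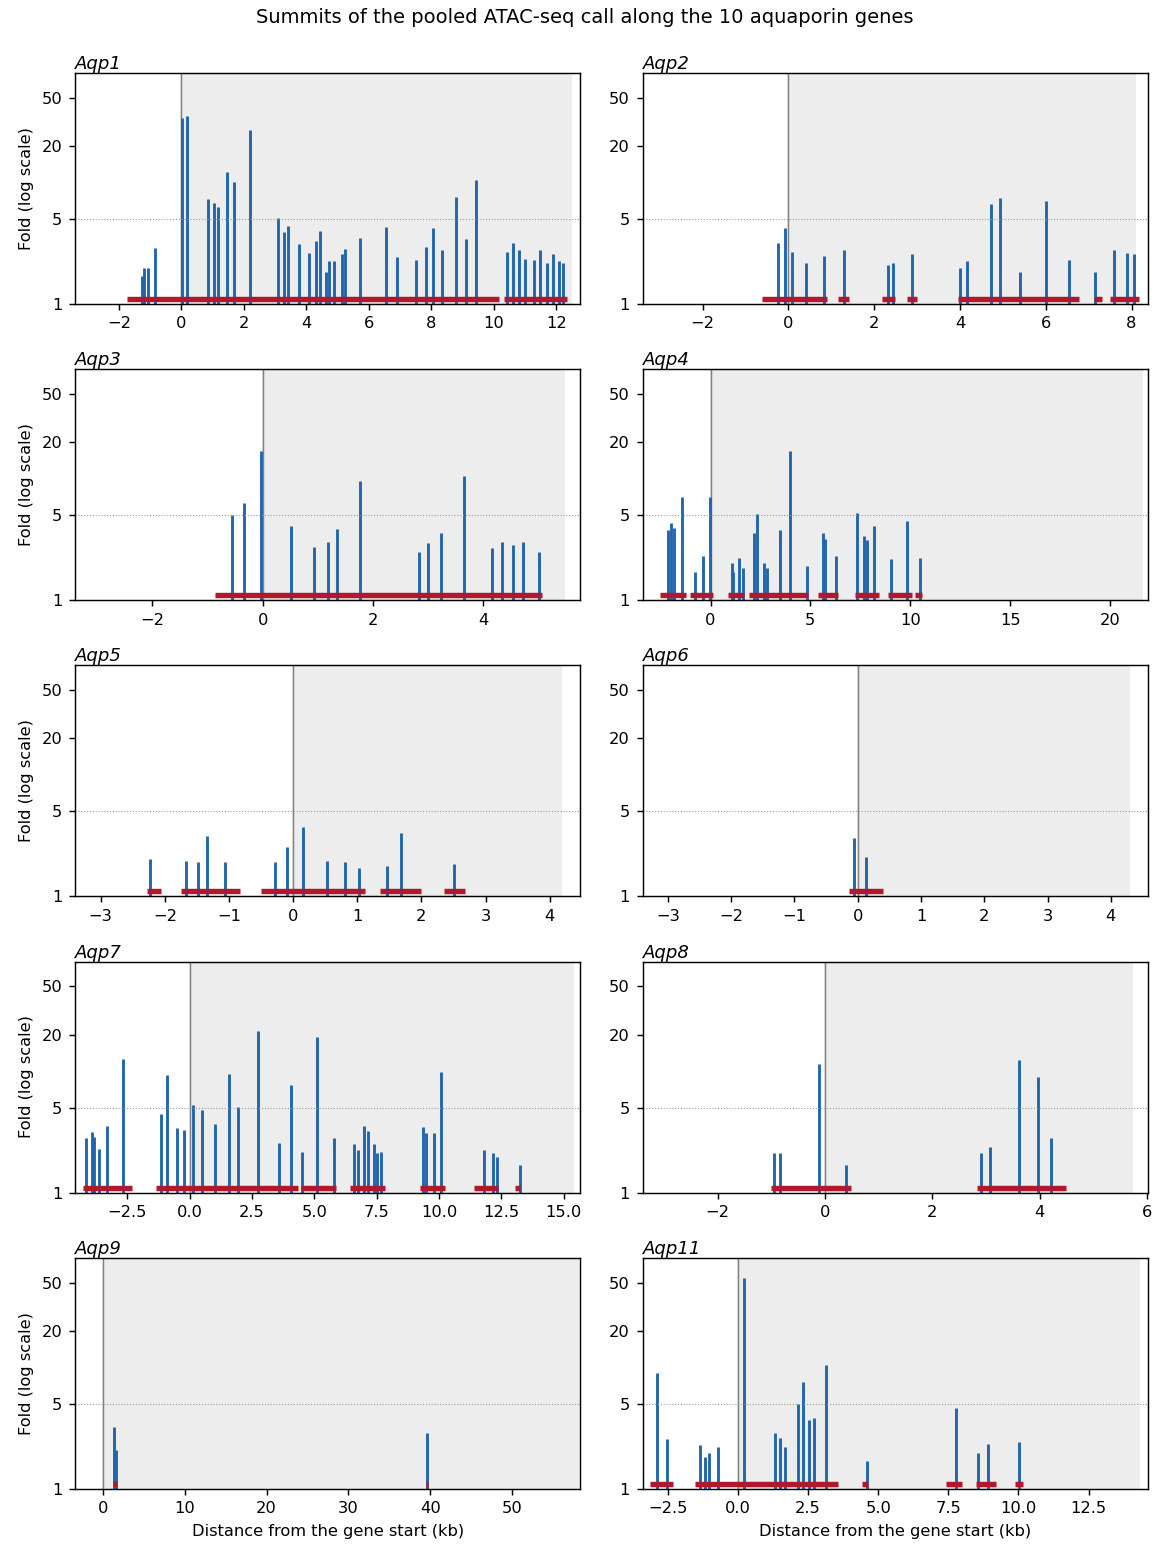
Summits of the pooled call along each of the 10 aquaporin genes, with distance from the gene start in kb on the x axis, read in the direction of transcription, and fold on a log y axis. Blue lines are summits, red bars are the called intervals, grey shading is the gene body and the dotted line is a fold of 5; Aqp1 is covered almost end to end, Aqp7 has its highest summits inside the gene, and Aqp9 holds 3 summits in its region.

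Of the principal cell channels Aqp2, Aqp3 and Aqp4, Aqp3 had the most open start and Aqp2 the least. Aqp3 (ENSMUSG00000028435.10, chr4:41092722-41098183, minus strand), the basolateral water and glycerol channel of principal cells, had a single interval, chr4:41093108-41099055, of 5948 bp and 17 summits. It covered 70.3% of the Aqp3 region. The highest summit lay 27 bp upstream of the start with a fold of 17.0 [15.0 to 19.2] from a pileup of 259. Summits inside the gene reached a fold of 10.6 in intron 3 at 3647 bp and 9.56 in intron 1 at 1768 bp. The Aqp3 sequence shown above holds the TATA box letters TATAAA, found on either strand in 10.1% of the 200-base stretches before protein-coding gene starts, and the GC box letters GGGCGG, found in 28.6%, beside TTGGC, the core bound by NF1 factors.

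Aqp4 (ENSMUSG00000024411.13, chr18:15522451-15544039, minus strand), the other basolateral channel of these cells and the main water channel of astrocytes, had 8 intervals, 4 of them with a fold of at least 5. The highest, chr18:15539161-15542131, had a fold of 16.8 [14.8 to 18.9] from a pileup of 255 and lay 3954 bp downstream of the gene start. It stood upstream of the start of the canonical transcript, which lies 7224 bp downstream of the gene start. The gene start itself had a summit of fold 7.07 [5.81 to 8.53] from a pileup of 107, at 3 bp upstream, and an interval 1421 bp upstream had the same pileup. Near the canonical start, a summit in the 5′ UTR had a fold of 5.17 [4.10 to 6.44] from a pileup of 78. The highest summit exceeded that at the gene start by a ratio of 2.38 [1.89 to 3.02]. Aqp4 has 17 annotated transcripts with 9 different starts, so its most open point lay between annotated starts rather than on the first of them.

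Aqp2 (ENSMUSG00000023013.7, chr15:99476936-99485016, plus strand), the vasopressin-regulated apical channel, had 7 intervals, and 1 of them had a fold of at least 5. At the gene start its highest summit had a fold of 4.19 [3.23 to 5.34] from a pileup of 63, at 72 bp upstream. The Aqp3 start exceeded the Aqp2 start by a pileup ratio of 4.11 [3.11 to 5.50]. The highest summit of Aqp2 lay 4929 bp downstream of the start, in the coding part of exon 4, the last exon, with a fold of 7.46 [6.16 to 8.96] from a pileup of 113, and exceeded the start by a ratio of 1.79 [1.31 to 2.48]. The interval that holds it, chr15:99480883-99483720, had further summits of fold 6.61 in intron 3 at 4715 bp and 7.07 in the 3′ UTR at 6007 bp. The exon 4 summit did not differ beyond counting error from the 3′ UTR summit (ratio 1.06 [0.804 to 1.39]) or the intron 3 summit (1.13 [0.856 to 1.49]). The other 5 intervals had folds from 1.83 to 2.75. Aqp2 had 0.632 intervals per kb of its region of 11081 bp, more than 97.4% of protein-coding genes. Aqp5 had 0.696 per kb, more than 98.7%. By count alone, the 7 intervals of Aqp2 were more than those of 61.3% of genes. Aqp2 thus had closely spaced intervals with low folds in a short region.

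The coding sequence under the highest Aqp2 summit is shown because it lies far from the start and yet exceeds it. It runs over 156 bases of exon 4, with 14 CG dinucleotides in capitals, and stops where the annotated coding sequence ends.
Aqp2 exon 4, chr15:99481765-99481920, plus strand: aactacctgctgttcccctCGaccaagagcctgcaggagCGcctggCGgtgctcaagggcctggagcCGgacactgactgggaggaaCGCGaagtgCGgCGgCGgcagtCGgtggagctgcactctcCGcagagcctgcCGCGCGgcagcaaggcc

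Aqp5 and Aqp6 lie downstream of Aqp2 on the same strand of chromosome 15, with 3515 bp between Aqp2 and Aqp5 and 6364 bp between Aqp5 and Aqp6. Aqp5 (ENSMUSG00000044217.20, chr15:99488532-99492710) had 5 intervals, none with a fold of 5. The highest summit, in the 5′ UTR 153 bp downstream of the start, had a fold of 3.73 [2.83 to 4.83] from a pileup of 56. Intervals 1337 bp upstream and 1686 bp downstream had folds of 3.14 and 3.34. Aqp6 (ENSMUSG00000043144.8, chr15:99499075-99503358) had 1 interval, chr15:99498931-99499480, with a fold of 3.01 [2.21 to 4.01] from a pileup of 45 at 65 bp upstream of its start. It covered 7.55% of the Aqp6 region.

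Across the 26423 bp from the Aqp2 start to the Aqp6 end there were 14 intervals, and the highest lay in none of the 3 gene regions. This interval, chr15:99493043-99494815, between the Aqp5 end and the Aqp6 start, had a fold of 11.3 from a pileup of 172. It exceeded the highest Aqp2 summit by a ratio of 1.52 [1.19 to 1.95]. Gm34765, a lncRNA on the opposite strand, spans Aqp2 and Aqp5 and this interval. The other pair of neighbours, Aqp7 and Aqp3 on chromosome 4, lie 44510 bp apart, and of the 20 intervals from the Aqp3 start to the Aqp7 end 12 lay in neither gene region. The highest of those 12, chr4:41054477-41059672, had a fold of 19.6 and exceeded the Aqp7 gene start by a pileup ratio of 2.12 [1.73 to 2.61].

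**Figure D2:**
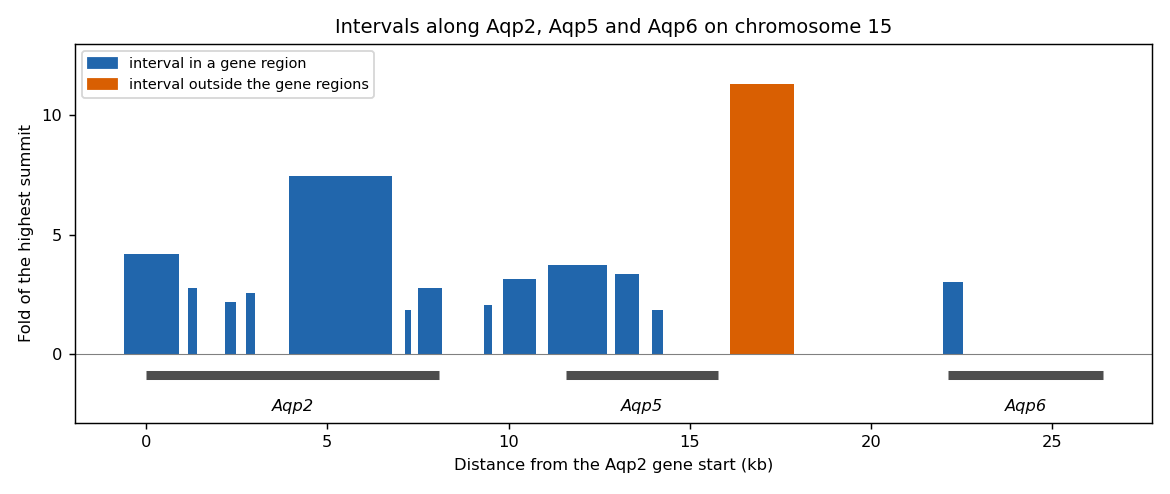
Intervals along the Aqp2, Aqp5 and Aqp6 genes, with distance from the Aqp2 gene start in kb on the x axis and the fold of the highest summit of each interval on the y axis. Bar width is interval width, grey bars below are the genes, and the orange bar, the highest at a fold of 11.3, lies between Aqp5 and Aqp6 outside all 3 gene regions.

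Aqp9 (ENSMUSG00000032204.15, chr9:71017928-71075964, minus strand), which carries glycerol into liver cells, was the least open of the 10 genes by covered share. Its 2 intervals covered 1.13% of its region. The higher, chr9:71074246-71074783, had a fold of 3.21 [2.38 to 4.23] from a pileup of 48, at 1391 bp downstream of the gene start and 20 bp from another annotated transcript start. The other, in intron 4 at 39608 bp, had a fold of 2.88 [2.10 to 3.86]. No summit lay within 1 kb of the gene start or of the canonical start, so no level can be given there beyond the limit of the call, whose lowest summit had a pileup of 25. The sequence before the Aqp9 start is shown as the 1 without an interval, and its capitals mark TGACGTCA, the full letters of a CREB site, the kind of site through which cyclic AMP acts on genes.
Aqp9 promoter, chr9:71075965-71076164, minus strand: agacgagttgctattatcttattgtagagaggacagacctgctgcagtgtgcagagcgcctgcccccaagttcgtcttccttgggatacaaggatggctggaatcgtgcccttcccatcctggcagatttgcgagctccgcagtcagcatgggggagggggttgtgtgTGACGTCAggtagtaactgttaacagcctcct
These letters stood on either strand in 1.23% of the 200-base stretches before protein-coding gene starts. They stood in the 200 bases before the start of none of the other aquaporin genes. Sequence farther upstream of Aqp2 was not searched, so a site there is not excluded. At Aqp9 they lay in sequence that was not called as open in this pool.

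Ordered by their highest summit, the 10 genes ran Aqp11, Aqp1, Aqp7, Aqp3, Aqp4, Aqp8, Aqp2, Aqp5, Aqp9 and Aqp6. Neighbours in this order differed beyond counting error except Aqp3 and Aqp4, with a pileup ratio of 1.02 [0.851 to 1.21], Aqp5 and Aqp9, with 1.17 [0.779 to 1.75], and Aqp9 and Aqp6, with 1.07 [0.695 to 1.64]. By the gene start the order was Aqp11, Aqp1, Aqp3, Aqp8, Aqp7, Aqp4, Aqp2, Aqp5 and Aqp6, with no summit at Aqp9. Here the neighbours Aqp8 and Aqp7 did not differ beyond counting error (ratio 1.24 [0.989 to 1.56]), nor did Aqp2 and Aqp5 (1.12 [0.772 to 1.64]) or Aqp5 and Aqp6 (1.24 [0.826 to 1.89]). From end to end, the Aqp11 start exceeded the Aqp6 start by a ratio of 18.6 [13.8 to 25.7]. The aquaglyceroporins Aqp3, Aqp7 and Aqp9 were spread over the order by highest summit, with folds of 17.0, 21.5 and 3.21.

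**Figure D3:**
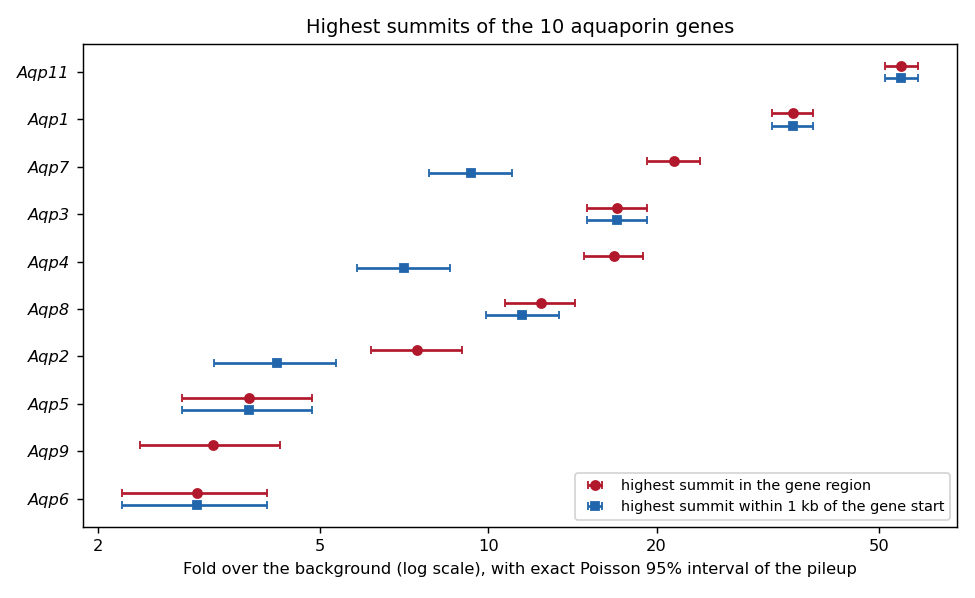
Fold of the highest summit in the gene region (red circles) and within 1 kb of the gene start (blue squares) for the 10 aquaporin genes, on a log x axis, with exact Poisson 95% intervals that cover counting error only. Circle and square coincide for Aqp11, Aqp1, Aqp3, Aqp5 and Aqp6, lie apart for Aqp7, Aqp4 and Aqp2, and Aqp9 has no square.

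Read against all protein-coding genes, most aquaporin genes had an interval at the start, and their median start fold was below that of all genes. An interval lay within 1 kb of the gene start in 9 of the 10 aquaporin genes and in 74.3% of all 21757 genes. A summit of fold 5 or more stood within 1 kb of the start in 6 of the 10 and in 61.5% of all genes, shares that lie near each other. A summit of fold 20 or more stood there in 2 of the 10, Aqp11 and Aqp1, and in 44.0% of all genes. An interval of fold 5 or more lay anywhere in the region of 7 of the 10 and of 74.7% of all genes, again near each other. The median fold at the start was 8.18 over the 10 genes, with Aqp9 counted as 0, and 13.8 over all genes, and 7 of the 10 were below the latter. The median of the highest summit was 14.6 over the 10 genes and 24.3 over all. The median covered share of the region was 47.9% and 16.7%, and 8 of the 10, all but Aqp6 and Aqp9, were above the median of all genes, whose regions had a median length of 22.2 kb. Of the 10 regions, 8 were shorter than that.

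**Figure D4:**
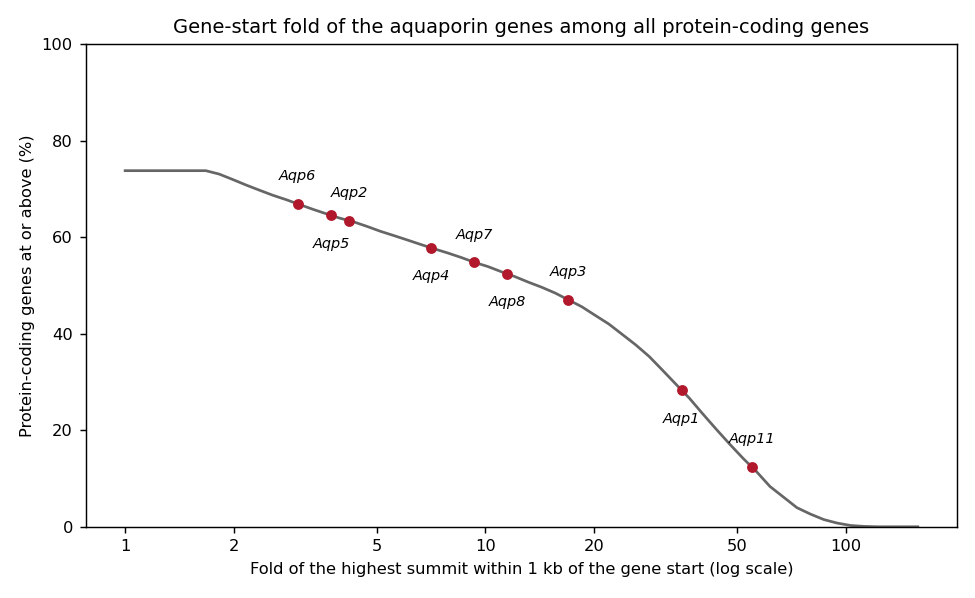
Share of all 21757 protein-coding genes, in percent on the y axis, whose highest summit within 1 kb of the gene start reached at least the fold on the log x axis, with 9 aquaporin genes as red points on the curve. Aqp11 and Aqp1 lie past a fold of 20, a level that 44.0% of all genes reached, and Aqp9 has no summit there and no point.

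The highest summit lay within 1 kb of the gene start in 5 of the 10 genes, Aqp1, Aqp3, Aqp5, Aqp6 and Aqp11. Over the 18102 protein-coding genes with an interval in their region this share was 59.2%. Of the 15 aquaporin intervals with a fold of at least 5, 5 had their highest summit within 1 kb of the gene start and 10 farther away. By their highest summit, 14 of the 41 intervals lay upstream of the canonical transcript, 8 in an exon and 19 in an intron. Neither split was computed over all intervals of the list, so neither is read as particular to these genes. The 41 intervals had a median fold of 3.54 and a median width of 962 bp, where all intervals of the list had medians of 2.55 and 434 bp. A q under 1e-05 was reached by 31 of the 41. The lowest fold that met this threshold, 2.42, had 45.1% of all intervals of the list below it.

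CpG content and openness at the start did not go together simply. In the 500 bases around the gene start, Aqp5 had 53 CG dinucleotides, more than 92.1% of protein-coding genes, and a start fold of 3.73. Aqp1 had 10 and a start fold of 35.1, so that its pileup exceeded that of Aqp5 by a ratio of 9.55 [7.25 to 12.8]. Aqp11 with 39 and Aqp3 with 33 had folds of 54.9 and 17.0, and Aqp2 with 19, near the median of 18 over all genes, had 4.19. Aqp7 and Aqp8, with 2 and 10, had folds of 9.30 and 11.5, and Aqp4 and Aqp6, with 6 and 5, had 7.07 and 3.01. The 10 points are genes of 1 pooled library set and are given as a description.

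**Figure D5:**
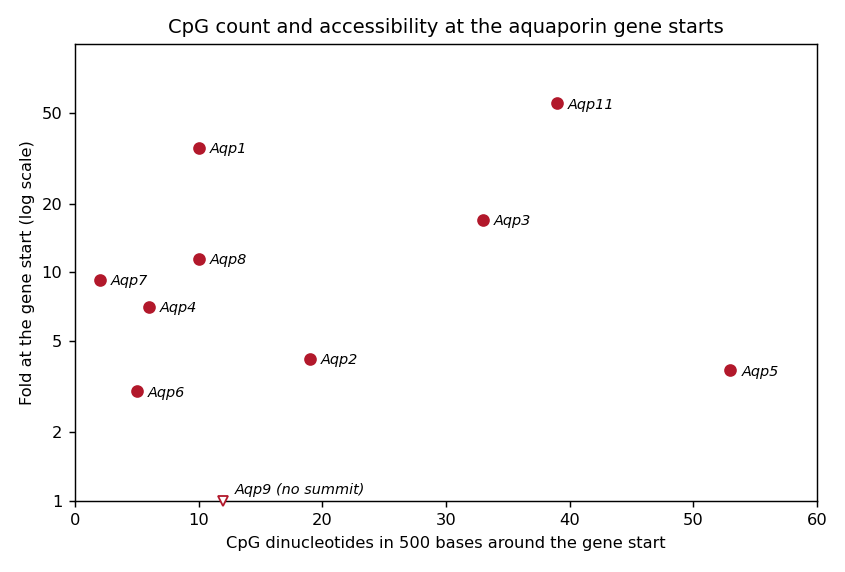
CG dinucleotides in the 500 bases around the gene start (x axis, count) and fold of the highest summit within 1 kb of the start (log y axis) for the 10 aquaporin genes. Aqp5 combines 53 CG dinucleotides with a fold of 3.73 and Aqp1 10 with 35.1; the open triangle at the foot of the plot marks Aqp9, which has no summit there and so no fold.

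The sequences before the other starts held few of the 16 motifs. Aqp5 had 2 GC boxes, GGGCGG, and the AP-2 letters GCCNNNGGC, which overlap the latter GC box and stood in 9.85% of all such stretches. Aqp7 had TTGGC and the GATA letters AGATAA, present in 7.88% of them and also found before the Aqp9 start. It also had 2 copies of TGGAAA, the core bound by the tonicity factor NFAT5, present in 15.9%. Aqp11 had AGGTCA, present in 11.2%, and the 200-base window around its summit, in the 5′ UTR, held 5 GC boxes, letters that stood in 8.15% of all summit windows. The window around the Aqp1 start summit held a GC box, the AP-2 letters and TTGGC. Aqp1 had the CCAAT box and TTGGC, present in 31.8% and 37.1%, and Aqp2 and Aqp6 had TTGGC alone. All motifs were searched on both strands with no mismatch.

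Cell type markers were read in the same way, as the highest summit within 1 kb of the start. A fold of at least 5 was reached there by 61.5% of all protein-coding genes, the share to read beside the count of each marker list. The lists are short, and no count was tested against that share. The 5 markers of collecting duct principal cells all had a fold of at least 5, from 6.87 at Avpr2, the vasopressin V2 receptor, to 28.4 at Scnn1g, a subunit of the epithelial sodium channel. Aqp2, whose protein defines the same cells, was below all of them. The Avpr2 start exceeded the Aqp2 start by a pileup ratio of 1.65 [1.20 to 2.29] and the Scnn1g start by 6.87 [5.27 to 9.10]. The Aqp3 start, at 17.0, lay within the range of these 5 genes. The Aqp4 gene start, at 7.07 [5.81 to 8.53], lay at the lower end of that range. The canonical start of Aqp4, at 5.17 [4.10 to 6.44], was below all 5. In bulk tissue, fewer cells of a type and less open chromatin per cell cannot be told apart, so folds of genes used by different cell types are not a measure of accessibility in any of them.

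Of 8 proximal tubule markers, 7 had a start fold of at least 5, with a median of 7.76, the highest 33.1 at Lrp2 and no summit at Slc22a8. The Aqp11 start, at 54.9, exceeded the Lrp2 start by a pileup ratio of 1.66 [1.49 to 1.86], while the Aqp1 start, at 35.1, did not differ from it beyond counting error (1.06 [0.938 to 1.20]), and Aqp7, at 9.30, was above the median. Of 5 thick limb and distal tubule markers 3 reached a fold of 5, from 20.8 at Umod to no summit at Pvalb, and of 4 intercalated cell markers 2 did, from 11.5 at Atp6v1b1 to no summit at Slc4a1. Aqp6, at 3.01, was below the 3 intercalated cell markers that had a summit, the lowest of which was Foxi1 at 4.65. Markers of other cells were also called: a fold of 5 was reached by 2 of 4 podocyte markers, up to 15.2 at Synpo and down to 2.88 at Nphs1, 2 of 4 endothelial markers, from 2.49 at Pecam1 to 31.2 at Ehd3, 1 of 4 immune markers, from no summit at Cd3e to 11.2 at Cd68, and 2 of 3 stromal markers, from 2.95 at Col3a1 to 10.9 at Col1a1. Of 10 genes used in other organs 1 reached it, Gfap at 8.05, and 6 had no summit at the start, Ins2 among them. The start folds of Aqp2, Aqp4, Aqp5 and Aqp6 all lay in the range of the 4 that had one, 2.49 to 8.05. Aqp1 and Aqp4 are also used outside the tubule, and the part of other cell types in their folds was not tested.

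Genes that act with the aquaporins were read from lists of their known roles. Of 20 genes of vasopressin signalling, from the receptor to the vesicle machinery that moves Aqp2, 19 had a summit at the start, 13 a fold of at least 5 and 10 a fold of at least 20, with a median of 19.9. The highest was 94.5 at Prkaca, the catalytic subunit of protein kinase A, and Akap7, an anchor of that kinase, had no summit at the start. Of 12 transcription factors of the collecting duct and of tonicity 11 reached a fold of 5, with a median of 19.6, from 4.65 at Foxi1 to 80.3 at Creb1. Of 10 urea and salt transport genes 8 did, with a median of 11.9, the highest at Scnn1g and none at the gene start of the urea transporter gene Slc14a2. Of 7 genes of glycerol handling 4 did, with a median of 21.8, from no summit at Mgll to 60.1 at Gpd2. Against the 61.5% of all genes with a fold of at least 5, the shares of these lists were near or above that of all genes, and the Aqp2 start was below each of their medians. These values cover 1 kb on either side of the gene start and leave out the rest of the gene. In their regions, the strongest folds were 46.7 at Akap7, 19.1 at Slc14a2 and 21.0 at Mgll.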

How the data were processed

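ATAC-seq libraries of mouse kidney nuclei were grouped by the genotype in their labels. By their methods, the authors used fastp for trimming, Bowtie2 2.3.4.3 for alignment to mm39 (GRCm39) and MACS3 3.0.0 for peak calling, keeping unique alignments without duplicates, and filtered the peaks with bedtools 2.29.1 against a blacklist and to standard chromosomes. Tool versions are those of the submitters’ processing notes. The deposited list holds, for each summit, a fold (a ratio over the background), −log10 p and q, and a score that is derived from q. It is 1 pooled call, and no column is tied to a library. A second deposited file, the summits before filtering, held the same 188 summits in the 10 regions. Whether a unit of pileup is a read or a fragment is not given in the sources used here.

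Rows were joined into distinct intervals by position. Coordinates count from 1 on GRCm39, with gene starts from GENCODE M39. Pileups were recovered from the fold step and checked against the deposited −log10 p, which matched for 175 of 175 distinct values under a pileup of 200 to within 0.00049. Ratios of pileups have exact binomial 95% intervals. No test was run across genes. The genes named are the 10 aquaporins, genes starting within 1 kb of their intervals that bear on a result, and the highest and lowest of each list. Gm34765, Gm68808, Gm68525 and Gm68528 fall outside this rule and were named after the values were seen. The aquaporin genes and all lists were chosen with earlier results of these data known. Sequences were planned as windows around start summits. Since several lie in UTRs, the 200 bases before the gene start, and UTR-free parts of other windows, are printed instead. On simulated data, 500 of 500 joins, 20000 of 20000 pileups and 32 of 32 planted motifs were recovered. Versions were matplotlib 3.10.9, scipy 1.17.1, pandas 2.3.3, numpy 2.4.6 and Python 3.11.15.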

Additional observations from a re-analysis of the deposited data

How the results depend on the processing

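No paired analysis was possible because the peak list gives no value for any library, and no replicate could be left out for the same reason. The count of 41 intervals moved to 15 when a fold of at least 5 was required, to 79 with 10 kb on either side of each gene, and to 188 when summits were counted in place of intervals. It stayed between 31 and 41 under stricter q thresholds, without upstream sequence or with stricter overlap. The 9 genes with an interval within 1 kb of the start became 8 when the highest summit had to lie there, and 9 or 10 under other distances, starts and q thresholds, and the 7 with an interval of fold 5 or more became 7 to 9. For single genes, the count moved by more than 1.5 times in 27 of 80 alternatives, and the strongest fold left its counting interval in 12 of 50. With 10 kb flanks Aqp2, Aqp5 and Aqp6 all took the fold of 11.3 of the interval between Aqp5 and Aqp6, and Aqp7 took 30.1. As the mean of all summits of the interval, the fold was 7.80 at Aqp11 and 6.73 at Aqp1, close to 6.69 at Aqp7. These means are taken over 13, 34 and 12 summits, many of them low. By single summits, Aqp1 had folds of 35.1, 34.0 and 27.0, each above the highest of Aqp7, 21.5. The place of Aqp11 above Aqp1 rests on its summit of 54.9. Folds near the lowest pileup of 25 have wide intervals, and genes without a summit may be open below it.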

Other observations

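The family members left out of the list, Mip, the lens fibre channel, and Aqp12, a pancreatic channel, had no summit within 1 kb of their gene starts. In their regions Mip had 1 interval with a fold of 22.8 and Aqp12 had 2 intervals, the higher with a fold of 5.50. Upstream of Aqp7, 3 intervals outside both gene regions between Aqp7 and Aqp3 had a fold of at least 5, and the stretch also holds the lncRNA genes Gm68796, Gm68808, Gm68525 and Gm68528. The lncRNA Gm62815 starts between Aqp2 and Aqp5, within 1 kb of an interval of each, and Gm50048 starts inside the interval at the canonical start of Aqp4, on the opposite strand.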
